A study of Mus musculus with 8 samples.

Results

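The transcripts of 9 receptors that place leukocytes within the spleen were measured in CD11c-positive splenocytes. They are the CC chemokine receptors Ccr1, Ccr2, Ccr6, Ccr7 and Ccr9, the CXC chemokine receptors Cxcr3, Cxcr4 and Cxcr5, and Gpr183, a receptor for oxysterols. They were chosen by name for this role, though with earlier results of these data known, and all 9 were found among the 13786 genes of the count table. The mice were 7-week-old females of 2 strains, 4 C57BL/6 controls and 4 B6.SLE123. The second strain is C57BL/6 carrying the NZM-derived lupus intervals Sle1, Sle2 and Sle3 together, so an effect of a single interval cannot be told apart from that of the others. No mouse was treated, and both strains came from The Jackson Laboratory. The genotype labels count upward by 1 from mouse to mouse within each strain, and the strain of each mouse was therefore taken from its title. The labels number the mice of each strain but do not say how cages or days were shared, so p-values measure the spread between these samples.

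Chemokine receptors are G protein-coupled receptors that steer cells along gradients of secreted chemokines. In the spleen, CCR7 leads dendritic cells and T cells into the T cell zone, CXCR5 leads B cells into follicles, and GPR183 holds activated B cells and a subset of dendritic cells at the borders between zones. CXCR4 and CCR2 are best known for retention of cells in the bone marrow and their release from it, CCR9 for homing to the gut, and CCR1, CCR6 and CXCR3 for recruitment to inflamed tissue.

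Libraries held 25761789 to 32931045 counts in C57BL/6 and 25563070 to 37367094 in B6.SLE123. Itgax, which encodes CD11c, was abundant in every mouse. Levels are in CPM, the count of a gene scaled to the size of its library. Itgax stood at 1329 ± 77.9 CPM (SD, n = 4) in C57BL/6 and 1543 ± 93.4 in B6.SLE123. The cells are labelled as dendritic cells, and 10 markers of type 1 conventional dendritic cells summed to 3316 to 3794 CPM in C57BL/6 and 4954 to 6367 in B6.SLE123. Of these 10, 8 were higher, 1 was lower (Batf3) and 1 did not pass (Cadm1). Wdfy4 was the largest part of the sum, at 1851 and 3344 CPM. Markers of other cells were present too, and 9 of 9 red pulp macrophage markers were lower in B6.SLE123, with a summed level of 10037 to 12667 CPM in C57BL/6 and 1382 to 2818 in B6.SLE123. Proliferation markers moved the other way, with 8 of 8 higher and a summed level of 450.7 to 502.3 CPM in C57BL/6 and 852.7 to 1156 in B6.SLE123. By the same test, described below, 26.7% of all genes were higher and 26.6% lower. The part of the marker shifts in the receptor results below was not tested. In bulk RNA of this kind, fewer cells of a type and less RNA per cell cannot be told apart.

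Of the 9 receptors, 5 were higher in B6.SLE123 at an adjusted p below 0.05 (Ccr6, Ccr7, Cxcr3, Cxcr4 and Gpr183), 0 were lower and 4 did not pass (Ccr1, Ccr2, Ccr9 and Cxcr5). The test was the quasi-likelihood test of edgeR, adjusted by Benjamini-Hochberg over all 13786 genes, and it called 53.4% of all genes, 26.7% higher and 26.6% lower. The share of receptors called was therefore close to that over all genes, where rises and falls were about equally frequent. The 9 receptors had a median log2 fold change of 0.33, beside -0.0019 over all genes. The 5 called receptors were also the ones whose mice did not overlap between the strains, which was true of 48.9% of all genes. Ccr6 alone was called with more than a 2-fold change, a call that 11.1% of all genes reached. Every receptor had at least 92 counts in every mouse and at most 6990, so none was near the limit of detection.

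**Figure D1:**
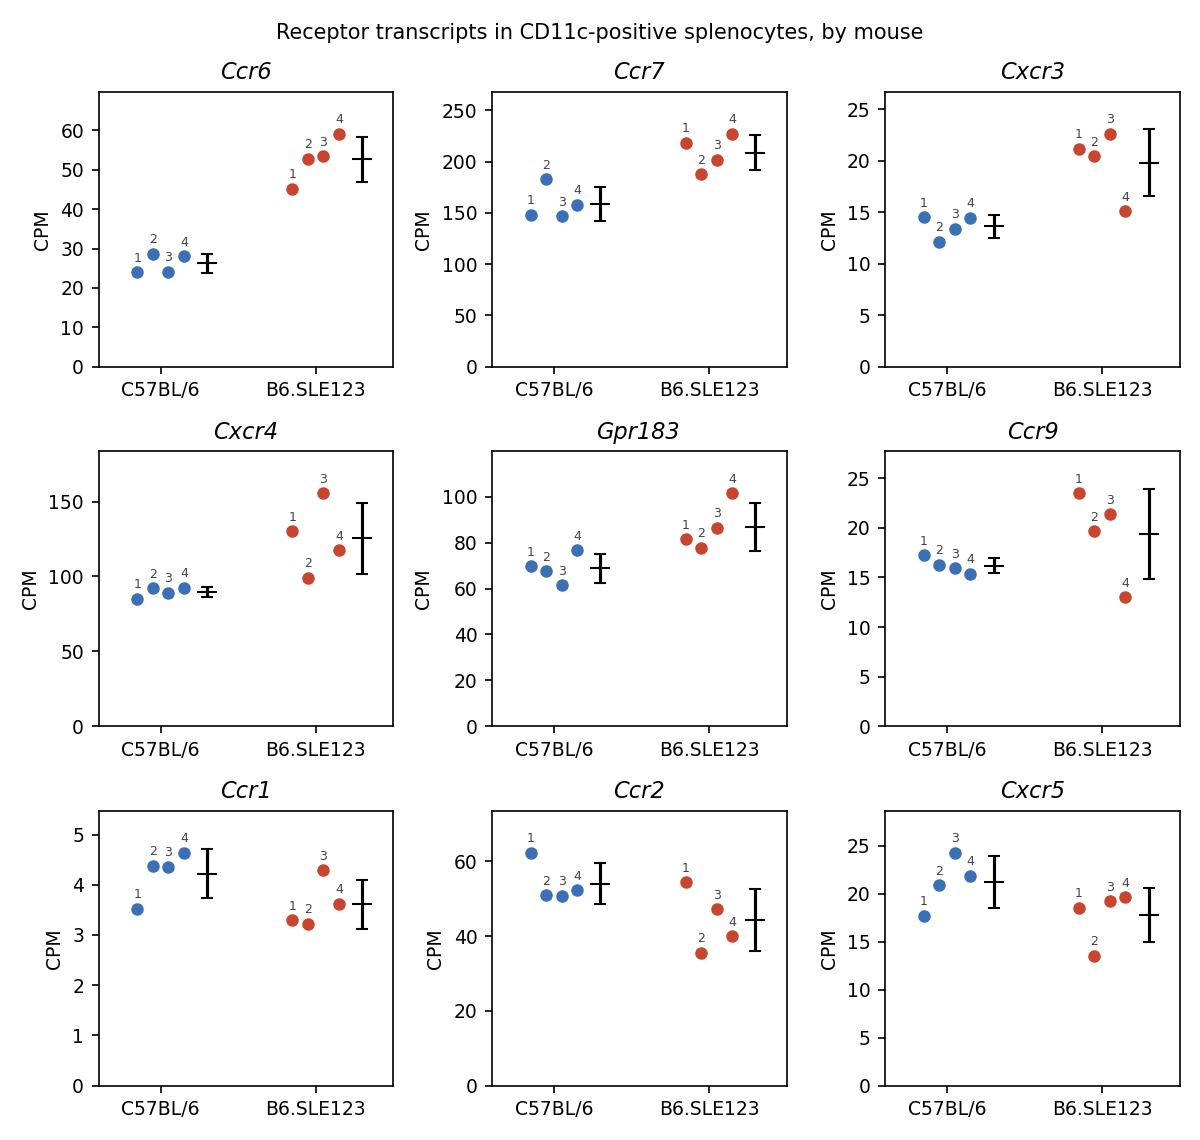
CPM of each receptor in each mouse, with the 4 C57BL/6 mice in blue, the 4 B6.SLE123 mice in red, replicate numbers above the points, and bars for the mean ± SD; axes start at 0 and differ in height between panels. The strains do not overlap for Ccr6, Ccr7, Cxcr3, Cxcr4 and Gpr183, and overlap for Ccr9, Ccr1, Ccr2 and Cxcr5.

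Promoter sequences of RefSeq (build GRCm38.p6, from 250 bases before to 50 after each transcription start) were matched to 7 of the 9 receptors: Ccr1, Ccr2, Ccr6, Ccr9, Cxcr3, Cxcr4 and Gpr183. They were searched on both strands for GAGGAA, called the core here. These letters are a form of the site bound by PU.1, the transcription factor of myeloid and B cells that the study examined. The study's own C1q probe for PU.1 does not hold them, so a promoter without a match may still carry a PU.1 site. The promoters of Ccr6 and Cxcr3 are printed because these receptors had the largest rises, with TTCCTC, the same core on the opposite strand, in capitals. Ccr6 has a pair of annotated starts, at chr17:8235793-8236092 and chr17:8242276-8242575 on the plus strand, and the core is in the upstream promoter, its first base 218 bases before the start. The Cxcr3 promoter lies at chrX:101734098-101734397 on the minus strand and has the core 14 bases before the start.
Ccr6, upstream start: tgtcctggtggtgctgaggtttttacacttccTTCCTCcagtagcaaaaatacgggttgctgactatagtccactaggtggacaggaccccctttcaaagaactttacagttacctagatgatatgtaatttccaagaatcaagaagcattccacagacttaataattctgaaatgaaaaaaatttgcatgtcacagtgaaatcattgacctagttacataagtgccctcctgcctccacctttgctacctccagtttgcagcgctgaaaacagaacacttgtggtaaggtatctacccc
Ccr6, downstream start: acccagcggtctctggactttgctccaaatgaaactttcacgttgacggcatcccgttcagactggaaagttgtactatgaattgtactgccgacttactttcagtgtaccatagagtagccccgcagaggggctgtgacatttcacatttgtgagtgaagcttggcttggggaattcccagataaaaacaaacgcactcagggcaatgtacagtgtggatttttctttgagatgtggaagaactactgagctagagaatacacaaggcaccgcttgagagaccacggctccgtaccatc
Cxcr3: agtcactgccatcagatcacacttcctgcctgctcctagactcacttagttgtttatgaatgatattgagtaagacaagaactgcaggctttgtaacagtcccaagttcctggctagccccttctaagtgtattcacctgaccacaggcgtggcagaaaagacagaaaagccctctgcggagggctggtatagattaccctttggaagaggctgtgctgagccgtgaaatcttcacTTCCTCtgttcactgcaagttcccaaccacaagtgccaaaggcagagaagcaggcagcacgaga
Ccr1, which was not called, also had the core, 129 bases before its start, and the promoters of Ccr2, Ccr9, Cxcr4 and Gpr183 held no match. Over all 32851 promoters of this length, 28.3% held at least 1 match, so these letters are common and their presence is a description only. An E-box (CANNTG) was found in every one of the receptor promoters except that of Cxcr4, beside 72.3% of all promoters. Cxcr4 was the receptor whose promoter held the letters TATAAA, in 2 overlapping matches counted over both strands, beside 13.6% of all promoters.

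Among the 9 receptors, Ccr6 changed most. CCR6 is the receptor for CCL20 and is carried by B cells and by subsets of dendritic and T cells. The gene lies on chromosome 17 at 8236043 to 8257141 (mm10, plus strand) and has 8 merged exons. Its level was 24.1, 28.7, 24.1 and 28.1 CPM in the C57BL/6 mice 1 to 4, and 45.2, 52.8, 53.5 and 59.1 CPM in the B6.SLE123 mice 1 to 4. All 4 B6.SLE123 mice were well above the highest control. The mean rose from 26.2 ± 2.50 to 52.7 ± 5.71 CPM, a log2 fold change of 1.005 ± 0.0876 (SE; edgeR adjusted p = 4.49e-06). This change was larger in size than that of 87.9% of all genes. It sits at the 2-fold line, and with other settings it ranged from 0.94 to 1.07 on the log2 scale.

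Ccr7, the receptor for CCL19 and CCL21 that marks migrating mature dendritic cells and naive T cells, was the most abundant of the 9. The gene lies on chromosome 11 at 99144196 to 99155077 on the minus strand, with 3 exons. C57BL/6 mice 1 to 4 had 148.1, 182.8, 146.8 and 157.8 CPM, and B6.SLE123 mice 1 to 4 had 218.6, 187.9, 201.9 and 227.0 CPM. The ranges came close, with C57BL/6 replicate 2 just under B6.SLE123 replicate 2, but did not overlap. Ccr7 was 1.31-fold higher in B6.SLE123 (log2 fold change 0.39 ± 0.079 SE, edgeR adjusted p = 0.00155).

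Gpr183 (EBI2) lies within the gene Ubac2 on chromosome 14 at 121952551 to 121965195, on the opposite strand and sharing no exon bases with it. The C57BL/6 mice had 69.7, 67.5, 61.6 and 76.9 CPM, and the B6.SLE123 mice 81.6, 77.9, 86.5 and 101.5 CPM. The highest control, replicate 4, was just under the lowest B6.SLE123 mouse, replicate 2. Gpr183 was the least changed of the receptors called, 1.26-fold higher (log2 fold change 0.33 ± 0.087 SE, edgeR adjusted p = 0.00769).

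Cxcr5, the receptor for CXCL13 that defines entry into B cell follicles, did not pass the test and had the opposite sign. Its levels were 17.7, 20.9, 24.3 and 21.9 CPM in C57BL/6 and 18.5, 13.6, 19.3 and 19.7 CPM in B6.SLE123. The strains overlapped, with 1 mouse, B6.SLE123 replicate 2, below all others. The log2 fold change was -0.26 ± 0.12 (SE, edgeR adjusted p = 0.0972), and it passed the threshold when C57BL/6 replicate 1 was left out (-0.34, edgeR adjusted p = 0.0449). The gene lies on chromosome 9 at 44511787 to 44561877 on the minus strand and shares 110 exon bases with Bcl9l on the opposite strand, and the sources used here do not say whether reads were counted by strand.

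Within a mouse, the ratio of one receptor's counts to another's does not depend on library size. The ratios that follow were chosen after the values were seen and are descriptions with no test. The Ccr6 to Cxcr5 ratio was 1.25 ± 0.176 (SD, n = 4) in C57BL/6 and 3.03 ± 0.622 in B6.SLE123, with 0.992 to 1.37 in the controls and 2.44 to 3.89 in B6.SLE123. The Ccr7 to Cxcr5 ratio was 7.58 ± 1.22 in C57BL/6 and 11.9 ± 1.41 in B6.SLE123, again with no overlap between the mice. Among all genes, 22.5% had a ratio to Cxcr5 that was higher in B6.SLE123 without overlap.

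Cxcr3, the receptor for the interferon-inducible chemokines CXCL9 and CXCL10, is carried by T cells, NK cells and plasmacytoid dendritic cells. It lies on the X chromosome at 101731535 to 101734269 on the minus strand, with 2 exons. The C57BL/6 mice had 14.5, 12.1, 13.4 and 14.5 CPM, and the B6.SLE123 mice 21.2, 20.5, 22.6 and 15.1 CPM. Replicates 1 to 3 of B6.SLE123 stood apart from the controls, and replicate 4 was close to the highest of them. Cxcr3 was 1.46-fold higher (log2 fold change 0.54 ± 0.12 SE, edgeR adjusted p = 0.00234).

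Ccr9, the CCL25 receptor of gut-homing lymphocytes and plasmacytoid dendritic cells, had 17.2, 16.3, 15.9 and 15.4 CPM in C57BL/6 and 23.5, 19.6, 21.4 and 12.99 CPM in B6.SLE123. Replicates 1 to 3 of B6.SLE123 were above every control and replicate 4 was below every control, the same mouse that was lowest of its strain for Cxcr3. Over all mice Ccr9 did not pass (log2 fold change 0.26 ± 0.14 SE, edgeR adjusted p = 0.146). Without B6.SLE123 replicate 4 it passed, at a log2 fold change of 0.40 (edgeR adjusted p = 0.00151). The ratio of Ccr9 to Cxcr3 counts, chosen after the values were seen, was 1.19 ± 0.115 in C57BL/6 and 0.969 ± 0.103 in B6.SLE123, with overlap. Ccr9 spans chromosome 9 from 123678439 to 123784330 on the plus strand and overlaps 6 other genes. Of these, 3 share exon bases with it, 1932 of them with AC165425.1 on the opposite strand.

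Cxcr4, the receptor for CXCL12 and the most widely carried of the family, had 85.2, 92.2, 89.0 and 92.4 CPM in C57BL/6 and 130.2, 99.0, 155.4 and 117.4 CPM in B6.SLE123. The controls lay within a narrow band, while the B6.SLE123 mice were all above it and spread widely, with SDs of 3.39 and 23.7 CPM. Cxcr4 was 1.40-fold higher (log2 fold change 0.48 ± 0.11 SE, edgeR adjusted p = 0.00343). The gene lies on chromosome 1 at 128588199 to 128592293 on the minus strand. The Sle1, Sle2 and Sle3 intervals are on chromosomes 1, 4 and 7, which makes Cxcr4 the only one of the 9 receptors on such a chromosome. The borders of the intervals are not in the files used here.

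Ccr2 and Ccr1 are receptors of monocytes and their descendants. CCR2 binds CCL2 and is needed for monocytes to leave the bone marrow, and CCR1 binds CCL3, CCL5, CCL6 and CCL9. Ccr2 had 62.2, 50.9, 50.8 and 52.2 CPM in C57BL/6 and 54.4, 35.5, 47.3 and 40.0 CPM in B6.SLE123. B6.SLE123 replicate 1 lay within the control range, and the other 3 were below it. The log2 fold change of Ccr2 was -0.29 ± 0.12 (SE, edgeR adjusted p = 0.0637). Its call depended on the fit, since it passed in DESeq2 (-0.29, adjusted p = 0.0400) and without B6.SLE123 replicate 1 (-0.40, edgeR adjusted p = 0.00912). Ccr1 was the scarcest receptor, at 3.52, 4.38, 4.36 and 4.63 CPM in C57BL/6 and 3.29, 3.23, 4.29 and 3.62 CPM in B6.SLE123. The strains overlapped, and its log2 fold change was -0.23 ± 0.14 (SE, edgeR adjusted p = 0.177). No rise or fall of Ccr1 is shown by these values.

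Levels of different receptors can be compared only per length, so CPM was divided by the merged exon length of each gene in kilobases. In C57BL/6, Ccr7 was highest at 80.3 CPM per kb, followed by Cxcr4 at 49.6, Gpr183 at 23.9 and Ccr6 at 11.3. Each of these 4 stood clear of the next, with no overlap between mice. Ccr2 at 7.99, Cxcr3 at 7.88 and Cxcr5 at 6.37 CPM per kb formed a middle group in which neighbours overlapped. Ccr9 at 1.58 and Ccr1 at 1.49 were lowest and did not differ beyond their spread. B6.SLE123 had the same 4 receptors on top in the same order, Ccr7 at 105.6, Cxcr4 at 69.4, Gpr183 at 30.1 and Ccr6 at 22.7 CPM per kb. Cxcr3 at 11.5 then stood apart from Ccr2 at 6.55, which overlapped Cxcr5 at 5.33, with Ccr9 at 1.89 and Ccr1 at 1.27 lowest and overlapping. The order of the middle and lower receptors depends on the length used. With coding length in place of exon length, Ccr2 in C57BL/6 ranked above Ccr6, and Ccr9, whose merged exons sum to 10260 bases, ranked above Cxcr3 in that strain.

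**Figure D2:**
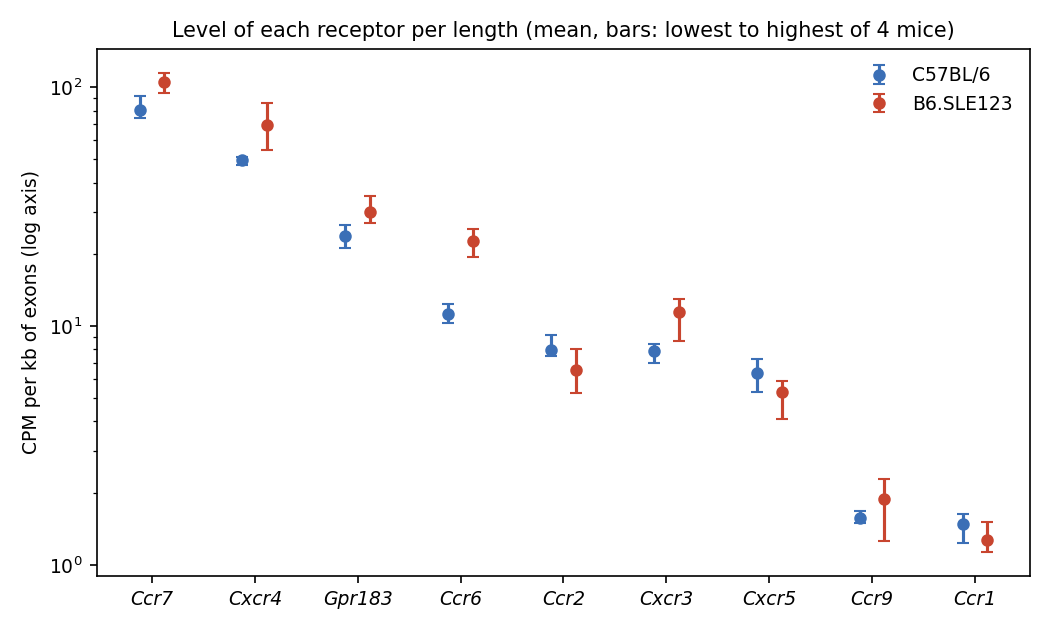
Level of each receptor in CPM per kb of merged exons on a log axis, with C57BL/6 in blue and B6.SLE123 in red; points are means and bars run from the lowest to the highest of 4 mice. Ccr7, Cxcr4, Gpr183 and Ccr6 stand in this order in both strains, from 80.3 to 11.3 CPM per kb in C57BL/6.

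Because markers of several cell types differed between the strains, each receptor was also set against the markers of cells known to carry it. The value is the receptor's log2 CPM minus the mean log2 CPM of the list in the same mouse. These values are descriptions with no test. None of the markers in the 6 lists used was at 0 counts in any mouse. Beside the counts of markers called in these lists, 53.4% of all genes were called, 26.7% higher and 26.6% lower. The B cell list fell, with 8 of 10 markers lower and a summed level of 576.1 to 683.8 CPM in C57BL/6 and 387.9 to 485.0 in B6.SLE123. Against it, Ccr6 went from -1.10 ± 0.15 to 0.49 ± 0.27 (SD, n = 4), a difference of 1.59 on the log2 scale. Cxcr4 differed by 1.06, Gpr183 by 0.92 and Cxcr5 by 0.33, all 4 higher in B6.SLE123 without overlap. Against this list, 64.1% of all genes were higher without overlap, so the separation itself was common. The mean of the B cell markers changed by -0.59, which is part of each of these differences, and Cxcr5 itself was not called.

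Ccr7 was set against mature dendritic cell markers, of which 6 of 8 were higher and 0 lower, with a summed level of 1847 to 2027 CPM in C57BL/6 and 2265 to 2615 in B6.SLE123. Fscn1, the actin-bundling protein of mature dendritic cells, led this list with a log2 fold change of 0.82. The difference of Ccr7 from the list was 0.15 higher in B6.SLE123, and the mice overlapped, where 6.18% of all genes were higher without overlap. Relative to these markers, then, Ccr7 was not separated between the strains. T cell markers had a median log2 fold change of -0.34, with 1 of 10 higher (Cd5) and 2 lower (Lck and Lat). Their summed level was 54.4 to 69.0 CPM in C57BL/6 and 52.6 to 64.8 in B6.SLE123, and Cd5 was the largest part of it, at 19.2 and 27.6 CPM. The mean log2 CPM of the list, which is subtracted here, changed by -0.24 and is part of each difference. Against them Ccr7 differed by 0.63 with no overlap and Cxcr3 by 0.76 with overlap, beside 13.8% of all genes higher without overlap.

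Plasmacytoid dendritic cell markers split, with 2 of 8 higher, among them Siglech, a surface lectin of these cells (log2 fold change 0.45), and 3 lower, among them Cox6a2 (-2.71). Their summed level was 391.6 to 425.9 CPM in C57BL/6 and 314.3 to 381.5 in B6.SLE123. Against this list Cxcr3 differed by 0.94 and Ccr9 by 0.64 on the log2 scale, both higher without overlap, as 53.2% of all genes were. The mean log2 CPM of the list changed by -0.41, which is part of both differences, and Ccr9 itself was not called. The fall of that mean was mainly that of Cox6a2 and Klk1 (-1.50), while Pacsin1 (0.95) was higher along with Siglech. Type 2 conventional dendritic cell markers, with 1 of 8 higher and 2 lower, summed to 2354 to 2532 CPM in C57BL/6 and 1502 to 1889 in B6.SLE123. Most of that sum was Sirpa, at 1784 and 950.5 CPM, so its fall is mainly that of Sirpa. Gpr183, which positions type 2 cells, differed from the list by 0.58 without overlap, beside 39.8% of all genes. The list mean changed by -0.25, which is part of that difference. Monocyte markers, with 2 of 8 higher and 3 lower, summed to 2401 to 2947 CPM in C57BL/6 and 729.4 to 1034 in B6.SLE123. Most of that sum was Csf1r, the receptor for macrophage colony-stimulating factor, at 2324 and 514.6 CPM. Ccr1 differed from this list by 0.47 and Ccr2 by 0.39, both without overlap, beside 68.6% of all genes. Neither receptor rose, and both had negative fold changes that did not pass. These differences are positive because the mean of the monocyte markers changed by -0.69. The fall of that mean was mainly that of Vcan (-3.03), Csf1r (-2.18) and Mgst1 (-1.71), the 3 called lower. Vcan averaged 6.25 counts in B6.SLE123. The 2 called higher were Plac8 (0.21) and Ms4a4c (0.46), and relative to these both receptors were lower in B6.SLE123. Ly6c2, F13a1 and Chil3 did not pass. The part of these cell types in the receptor results was not tested.

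**Figure D3:**
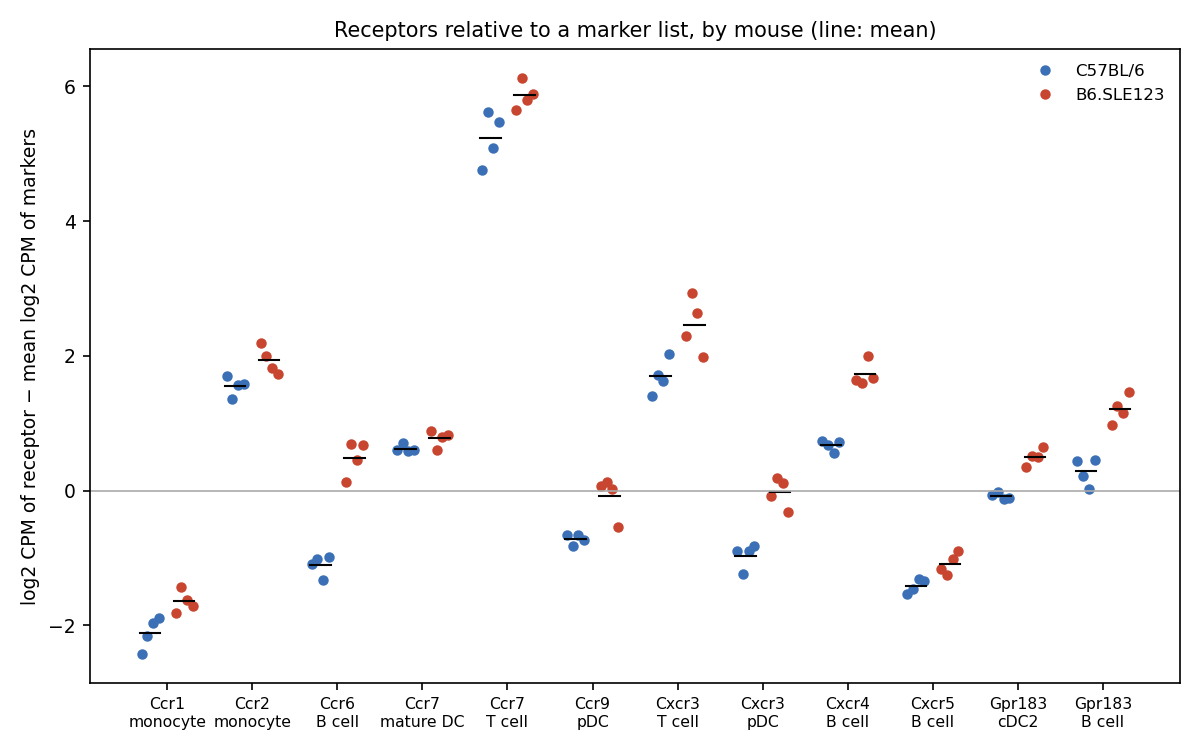
Log2 CPM of a receptor minus the mean log2 CPM of a marker list in each mouse, for 12 pairs of receptor and list, with C57BL/6 in blue, B6.SLE123 in red and lines at the means. The widest gap is that of Ccr6 against B cell markers, -1.10 in C57BL/6 and 0.49 in B6.SLE123, while Ccr7 against mature dendritic cell markers and Cxcr3 against T cell markers overlap.

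Of the 15 other chemokine receptors looked for, 12 were in the table. Among them 2 were higher, 4 were lower and 6 did not pass, with a median log2 fold change of -0.13. Beside this list and the ligand, oxysterol, positioning and signalling lists below, 53.4% of all genes were called, 26.7% higher and 26.6% lower. Xcr1, the receptor of type 1 conventional dendritic cells, rose from 111.7 ± 16.7 to 262.3 ± 63.2 CPM, a log2 fold change of 1.23 (edgeR adjusted p = 8.44e-05). Ccr3, the eotaxin receptor, went from 310.8 ± 43.3 to 49.9 ± 16.9 CPM, a log2 fold change of -2.65 (edgeR adjusted p = 2.20e-06). Both changes were larger than that of any of the 9 receptors. Ccr9, Ccr1 and Ccr2 lie with Cxcr6, Xcr1 and Ccr3 in a run on chromosome 9, from 123678439 to 124113557. In map order the log2 fold changes in this run were 0.26 for Ccr9, -0.15 for Cxcr6, 1.23 for Xcr1, -0.23 for Ccr1, -2.65 for Ccr3 and -0.29 for Ccr2. Of these genes, Xcr1 and Ccr3 passed the test, in opposite directions and with Ccr1 between them. The others in the run did not pass.

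**Figure D4:**
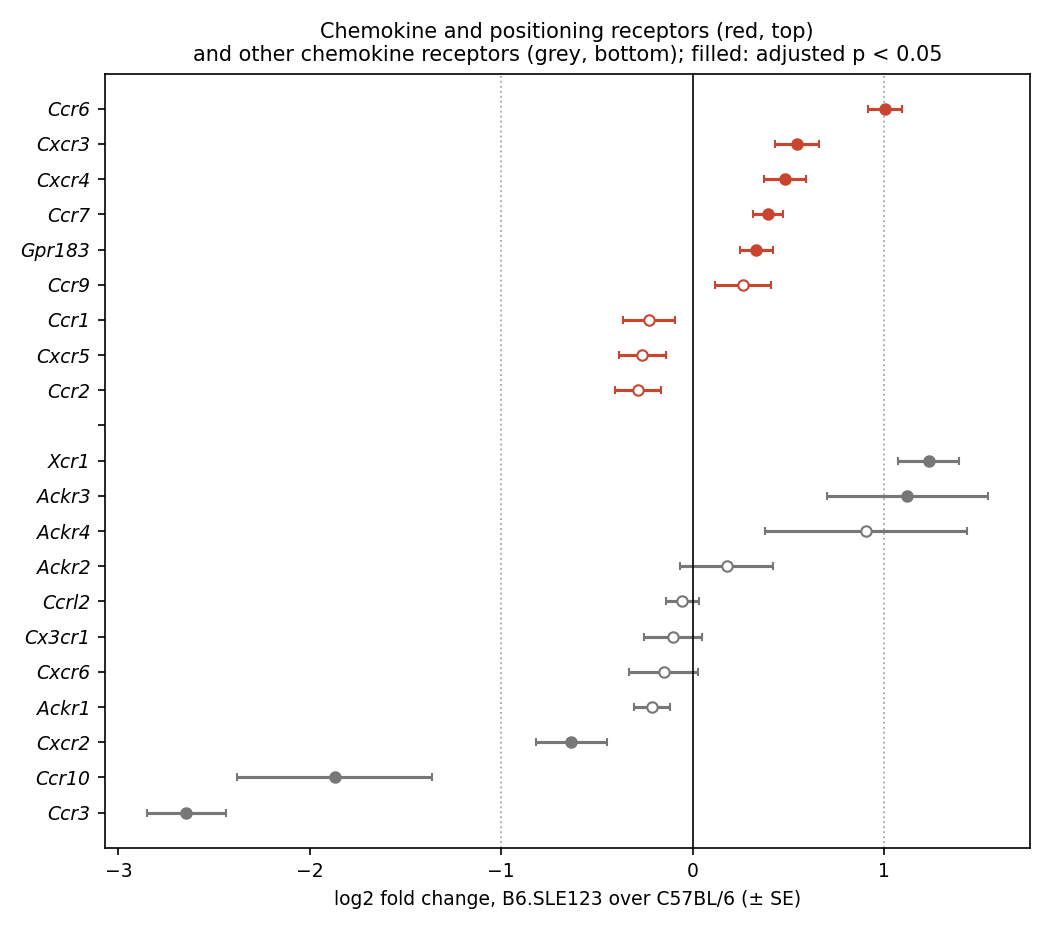
Log2 fold change (B6.SLE123 over C57BL/6) ± SE of the 9 receptors in red and of other chemokine receptors in grey; filled points passed an adjusted p below 0.05 and dotted lines mark 2-fold. The 9 receptors lie between -0.29 for Ccr2 and 1.005 for Ccr6, inside the range from -2.65 for Ccr3 to 1.23 for Xcr1.

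Of 20 chemokines listed as ligands of these receptors or their close relatives, 12 were in the table. Among these, 1 was higher, 7 were lower and 4 did not pass, and their median log2 fold change was -0.82. The rise was that of Cxcl9, a CXCR3 ligand induced by interferon-gamma, from 87.4 ± 18.1 to 150.1 ± 35.9 CPM (log2 fold change 0.78, edgeR adjusted p = 0.00435), although B6.SLE123 replicate 4, at 99.3 CPM, lay within the control range. Cxcl10, another CXCR3 ligand, fell by 0.52 on the log2 scale (edgeR adjusted p = 0.00569), so the ligands of the same receptor went in opposite directions. The inflammatory CCR1 ligands Ccl3, Ccl6 and Ccl9 fell by 1.13, 0.91 and 0.73, and Ccl4, a related inflammatory chemokine listed with them, by 1.07. Ccl5 was not called at -0.09 (edgeR adjusted p = 0.491). Ccl2, Ccl21a and Cxcl13, ligands of CCR2, CCR7 and CXCR5, were not called either, at -1.44, -1.30 and -0.64 (edgeR adjusted p = 0.0560, 0.123 and 0.272). All 3 were scarce, with a mean of at most 12.25 counts in either strain. Ccl25, the CCR9 ligand, fell by 0.59. Cxcl12, the CXCR4 ligand, is made mainly by stromal cells and was scarce, at 1.54 ± 1.10 and 0.341 ± 0.119 CPM. Its fall of 2.18 on the log2 scale was called, and C57BL/6 replicate 1, at 3.18 CPM, was far above the other controls at 0.960, 0.915 and 1.09 CPM.

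For Gpr183, 3 of 5 oxysterol enzymes were in the table. Cyp7b1, the hydroxylase that completes its main ligand, was low and higher in B6.SLE123, at 1.38 ± 0.16 and 2.76 ± 0.948 CPM (log2 fold change 1.0, edgeR adjusted p = 0.00412). Cyp27a1, a sterol hydroxylase, was abundant and fell by 0.28 on the log2 scale (edgeR adjusted p = 0.00369). Cyp39a1 did not pass, at -0.02, which was also the median of the 3.

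Other receptors and enzymes of cell positioning, among them those for sphingosine-1-phosphate, were all 22 in the table. Of these, 4 were higher, 14 lower and 4 did not pass, with a median log2 fold change of -0.42. The formyl peptide receptors Fpr1 and Fpr2 fell by 2.37 and 1.66 on the log2 scale, Plpp3, a lipid phosphatase that degrades sphingosine-1-phosphate, by 2.37 and Cmklr1, the chemerin receptor, by 1.94. The 4 that rose were P2ry10, P2ry14, Ptger4 and Cnr2, by 0.45, 0.44, 0.48 and 0.18. These 4 are G protein-coupled receptors for lipids or nucleotide sugars, and they are named because they were few, after their values were seen.

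Of 37 genes that carry or end chemokine receptor signals, 15 were higher, 9 lower and 13 did not pass, with a median log2 fold change of 0.08. Rgs1, a GTPase activator that dampens chemokine responses, fell from 303.3 ± 23.3 to 118.9 ± 33.2 CPM (log2 fold change -1.35, edgeR adjusted p = 2.88e-05). Pik3r6, a regulatory subunit of the phosphoinositide kinase downstream of these receptors, rose from 17.1 ± 1.21 to 36.9 ± 3.98 CPM (log2 fold change 1.11, edgeR adjusted p = 1.82e-06). No other gene of this list passed the test with more than a 2-fold change.

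For each receptor called, the genes with the most similar course over the 8 mice were found among 10611 genes with at least 100 counts on average. The measure was the root mean square difference of log2 CPM after centring each gene. Ccr7 had the closest match of all, Adora2a, an adenosine receptor, at 0.0321, with Tmem123 at 0.0517. Gpr183 was nearest to Bbs9 (0.0422) and Man1a (0.0638), and Ccr6 to Tctex1d2 (0.0681) and Cers6 (0.0826). Cxcr3 was nearest to P2ry14 (0.0903) and Zfp759 (0.0921), and Cxcr4, whose B6.SLE123 mice spread most, to 2700049A03Rik (0.105) and Polr2l (0.111). None of these matches was tested.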

How the data were processed

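RNA of CD11c-positive splenocytes was sequenced from 4 C57BL/6 and 4 B6.SLE123 mice, grouped by sample title. Per the labels, libraries were made with a stranded mRNA kit, and FastQC, cutadapt, STAR, featureCounts and DESeq2 were used with build mm10. Their versions and the strand setting of the counting are not given in the sources used here. The authors deposited raw counts per gene and mouse for 13786 genes. The label of the deposit names a minimum, so scarce genes may have been removed before it. Shares of all genes therefore refer to the genes kept, and a listed gene that is absent was not examined. The deposited table also holds the authors' DESeq2 comparison (mean signal, log2 fold change, test score, p-value and fold change as a ratio), which was not used. Of the per-sample columns, 0 were left unmapped.

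The strains were compared with the quasi-likelihood F test of edgeR 4.0.16 (R 4.3.3) after TMM scaling, without a further filter. The p-values were adjusted over all genes by Benjamini-Hochberg. CPM are counts divided by the TMM-scaled library size. Log2 CPM used a prior count of 2. The code was tested on simulated data. No pair of libraries of a strain agreed within sampling noise (chi-square per degree of freedom 5.15 to 19.7). Exon lengths came from GENCODE M21, with the same coordinates for all 9 receptors. Symbols turned into dates by a spreadsheet were restored for 21 genes.

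Alternatives were relative log expression factors, at least 10 counts in every sample, a replicate block, DESeq2 1.42.0, limma-voom (limma 3.58.1), leaving out each mouse, the list median or a prior count of 0.5 for the marker differences, and coding length for the levels. The receptors and the gene and marker lists were chosen with earlier results of these data known. Named genes were all receptors, the listed ligands and enzymes, at most 4 genes a list called with more than 2-fold change and at least 100 counts on average in the higher strain, the 2 nearest profiles of each called receptor, and leading markers. Other names were chosen after values were seen. In the other receptors, 1 gene was counted but is not reported here by name.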

Additional observations from a re-analysis of the deposited data

Results flagged for a closer look

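In 2 of 72 groups of 4 mice tested, 1 mouse stood far from the other 3 by Dixon's criterion, where chance alone gives about 1 in 20 groups, or 3.6 here. Ccr2 was high in C57BL/6 replicate 1, at 5.96 log2 CPM beside a median of 5.69 for its strain. Cxcr5 was low in B6.SLE123 replicate 2, at 3.77 log2 CPM beside a median of 4.25.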

How the results depend on the processing

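The 5 called receptors were called under every alternative, and none of the 9 receptor fold changes changed sign. The alternatives were run on these fold changes, the counts of calls, the marker differences and the levels, not on single genes of the other lists or on the ratios. Counts of calls stayed within 1.5 times in 98 of 104 comparisons. The exception was the number of receptors called with more than 2-fold change, 1 in the report, which was 0 among genes filtered at 10 counts per sample and 0 to 1 when a mouse was left out (0 without C57BL/6 replicate 1 or 3 or B6.SLE123 replicate 2, 3 or 4). Of 117 receptor fold changes, 112 kept their side of the threshold and 5 passed it newly, as given for Ccr2, Cxcr5 and Ccr9. With a replicate block, Ccr2 was the receptor whose call changed (log2 fold change -0.30, adjusted p = 0.00662), and 7183 of all genes were called. The labels do not say that the numbers mark shared animals, litters or days, the correlations of same-numbered mice were 0.0763 to 0.231, and 2 of 4 exceeded 0.1. In 5 of 8 mice the best correlation was with the mouse of the same number. Leaving out a mouse gave 6496 to 7013 genes called. Ccr2 against monocyte markers was 0.61 with the list median in place of the mean. With coding length the ranks in C57BL/6 were 4 for Ccr2, 5 for Ccr6, 6 for Cxcr5, 7 for Ccr9 and 8 for Cxcr3. The cause of these shifts was not tested. With 4 mice a strain, the changes of Ccr1, Ccr2, Ccr9 and Cxcr5 (0.23 to 0.29 on the log2 scale, either sign) were not separated from the spread of these genes in the main fit. Changes of this size did pass in other genes. Among all called genes, the 10th percentile of the absolute log2 fold change was 0.17.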
